A study of Mus musculus with 3 samples.

Results

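The genes described here encode the nuclear subunits and named assembly factors of the mitochondrial respiratory chain and ATP synthase, together with cytochrome c. They were chosen by symbol: protein-coding mouse genes beginning with Nduf, Uqcr or Atp5, the genes Sdha, Sdhb, Sdhc, Sdhd, Cycs and Cyc1, and the cytochrome c oxidase subunits from Cox4i1 to Cox8b. The rule found 97 genes, and 93 of them were among the 17870 genes listed in at least 1 library. Cox8c and Cyct, testis forms outside the rule, were not listed in any library and so had no level of at least 0.01 FPKM.

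RNA was sequenced from primary hepatic stellate cells, liver pericytes that store vitamin A, of 3 genotypes with 1 library each: wild type, TLR4-/-, which lacks a receptor for bacterial lipopolysaccharide, and CD44-/-, which lacks a hyaluronan receptor. All 3 came from male C57BL/6 mice 24 weeks old, and all cultures had the same handling: liver digestion with collagenase and pronase, a Nycodenz gradient, depletion of macrophages with CD11b beads, 3 days in DMEM with 10% serum and antibiotic-antimycotic, and 24 h without serum. No source used here gives the knockout alleles or says whether animals were pooled. With 1 library per genotype no difference below was tested, both knockout comparisons share the wild-type library, and the intervals given are 95% intervals for counting error only.

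The libraries held 24078669, 23659074 and 21460725 expected counts in the order wild type, TLR4-/- and CD44-/-, which is the order of all values given in series below. Cd44 stood at 17.2, 16.2 and 2.57 FPKM (fragments scaled by transcript length and library size), a ratio of 0.149 (0.130 to 0.170) in CD44-/-. Tlr4 stood at 15.8, 10.9 and 16.8 FPKM, so the TLR4 library is called the library labelled TLR4-/-. All 15 stellate cell markers examined reached 1 FPKM in every library, with sums of 6521, 6413 and 7878 FPKM. Dcn alone gave 2614, 2951 and 4337 FPKM of these sums. Below wild type were 12 of the 15 under the TLR4-/- label and 5 in CD44-/-, with median log2 ratios of -0.35 and 0.30. At least 2-fold below wild type were Colec11 (94.4 and 14.05 FPKM) and Acta2 (235 and 81.5 FPKM) under the TLR4-/- label. In CD44-/- this held for Col1a1 (588 and 205 FPKM). The 17 macrophage markers summed to 63.5, 27.3 and 627 FPKM, and of the 16 that could be compared all 16 were at least 2-fold higher in CD44-/- than in wild type. The 14 endothelial markers summed to 715, 416 and 495 FPKM, and without Eng, the highest of them, to 82.8, 28.0 and 37.9 FPKM. Of the 12 that could be compared, the library labelled TLR4-/- had 8 and CD44-/- had 7 at least 2-fold below wild type, among them Pecam1 at 8.09, 0.37 and 1.92 FPKM. The 10 hepatocyte markers summed to 10.5, 2.11 and 0.89 FPKM. The part of these other cells in the results below was not tested. In bulk RNA, fewer cells of a type and less RNA per cell cannot be told apart.

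The respiratory chain carries electrons from NADH and succinate through complexes I and II, ubiquinone, complex III and cytochrome c to complex IV, which reduces oxygen. Complexes I, III and IV pump protons, and complex V, the ATP synthase, uses the resulting gradient to make ATP. Most subunits are made from 1 gene in all tissues, but several complex IV subunits have a second gene used in heart and skeletal muscle, lung or testis. Stellate cells that turn into matrix-producing cells after injury are known to change their energy metabolism.

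Promoter windows of 250 bases before and 50 after the transcription start were given for 79 of the 97 genes, in RefSeq for GRCm38.p6, as 84 windows. Known regulators of respiratory genes include NRF1, the ETS factor GABP and YY1. The letters GCGCATGC, a core of the NRF1 site, were found on either strand in 15.5% of these windows, against 2.71% of 32851 windows of all genes and 5.22% of 12397 windows of genes with at least 1 FPKM. The YY1 core AAGATGGC was in 13.1%, against 2.75% and 4.40%, and the ETS core CCGGAAG was in 22.6%, against 8.86% and 17.7%. The cyclic AMP response element TGACGTCA was in 5.95%, against 1.79% and 3.00%, the E-box CAGCTG in 7.14%, against 16.3% and 15.1%, and the TATA letters TATAAA in 10.7%, against 13.6% and 6.98%. These motifs were searched on both strands with overlaps allowed, and a match is a description of letters, not a bound site.

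The 250 bases before the start are shown for 4 genes: cytochrome c, the mobile electron carrier, with NRF1 and cyclic AMP motifs, the common complex IV forms Cox6a1 and Cox6b1, and Cox6b2, the testis partner of Cox6b1. Capitals mark these motifs on either strand. The Cox6a1 run holds the NRF1 core on both strands, overlapping, and an ETS core. The Cox6b1 run holds an ETS core, and the Cox6b2 window held none of the 6 motifs. The windows of the common forms Cox7a2, Cox7b and Ndufa4 also held none. That of the common form Cox8a held an ETS core, and that of its partner Cox8b the E-box and the TATA letters.

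Cycs (chr6:50566570-50566819, minus strand): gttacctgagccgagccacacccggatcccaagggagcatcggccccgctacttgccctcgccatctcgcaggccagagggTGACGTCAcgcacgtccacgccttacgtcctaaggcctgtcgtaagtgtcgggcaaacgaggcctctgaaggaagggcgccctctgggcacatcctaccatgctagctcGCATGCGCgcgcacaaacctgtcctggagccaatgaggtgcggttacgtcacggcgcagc

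Cox6a1 (chr5:115348959-115349208, minus strand): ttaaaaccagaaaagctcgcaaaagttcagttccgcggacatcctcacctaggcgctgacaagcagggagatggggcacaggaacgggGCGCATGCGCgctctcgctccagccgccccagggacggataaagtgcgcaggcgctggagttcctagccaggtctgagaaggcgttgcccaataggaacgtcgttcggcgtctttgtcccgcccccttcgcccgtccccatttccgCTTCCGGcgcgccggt

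Cox6b1 (chr7:30626115-30626364, minus strand): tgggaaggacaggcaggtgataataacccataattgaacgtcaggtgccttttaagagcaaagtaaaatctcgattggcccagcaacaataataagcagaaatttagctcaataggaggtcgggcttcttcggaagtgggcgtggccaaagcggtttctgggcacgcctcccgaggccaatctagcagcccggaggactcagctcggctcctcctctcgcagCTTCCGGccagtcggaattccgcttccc

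Cox6b2 (chr7:4753095-4753344, minus strand): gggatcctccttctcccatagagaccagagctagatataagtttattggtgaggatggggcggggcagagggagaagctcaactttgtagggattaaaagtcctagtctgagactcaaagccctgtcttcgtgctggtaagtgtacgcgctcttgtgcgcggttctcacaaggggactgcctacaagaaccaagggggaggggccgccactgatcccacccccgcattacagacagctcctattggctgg

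As a group these genes were abundant and close to level across the 3 libraries. Their summed FPKM was 8595, 8591 and 8593, which was 1.97%, 1.97% and 1.98% of all FPKM and 0.705%, 0.714% and 0.701% of reads. The median over the 93 listed genes was 74.9, 79.3 and 79.0 FPKM. At least 1 FPKM was reached by 91 genes in some library and by 87 in all 3, and 84 stood at 5 FPKM or more in all 3. Their transcripts were short, with a median length of 707 bases against 2728 over the 12371 genes with at least 1 FPKM, and their median wild-type level was 77.4 FPKM against 10.5.

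Ndufb1, Ndufb4b, Ndufb4c and Cox7b2 were not listed in any library. The Entrez number of Ndufb1 lies above the highest number listed in the deposited tables, so its level is not known here. Cox7a1 and Cox8b were listed but stayed under 1 FPKM in all 3 libraries. Cycs, Ndufs1 and Ndufaf7 had expected counts that were not whole, as reads shared with similar transcripts give. Of the 97 genes, 32 overlap another gene in the annotation, and since strand handling is not given, reads there cannot be assigned with certainty.

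**Figure D1:**
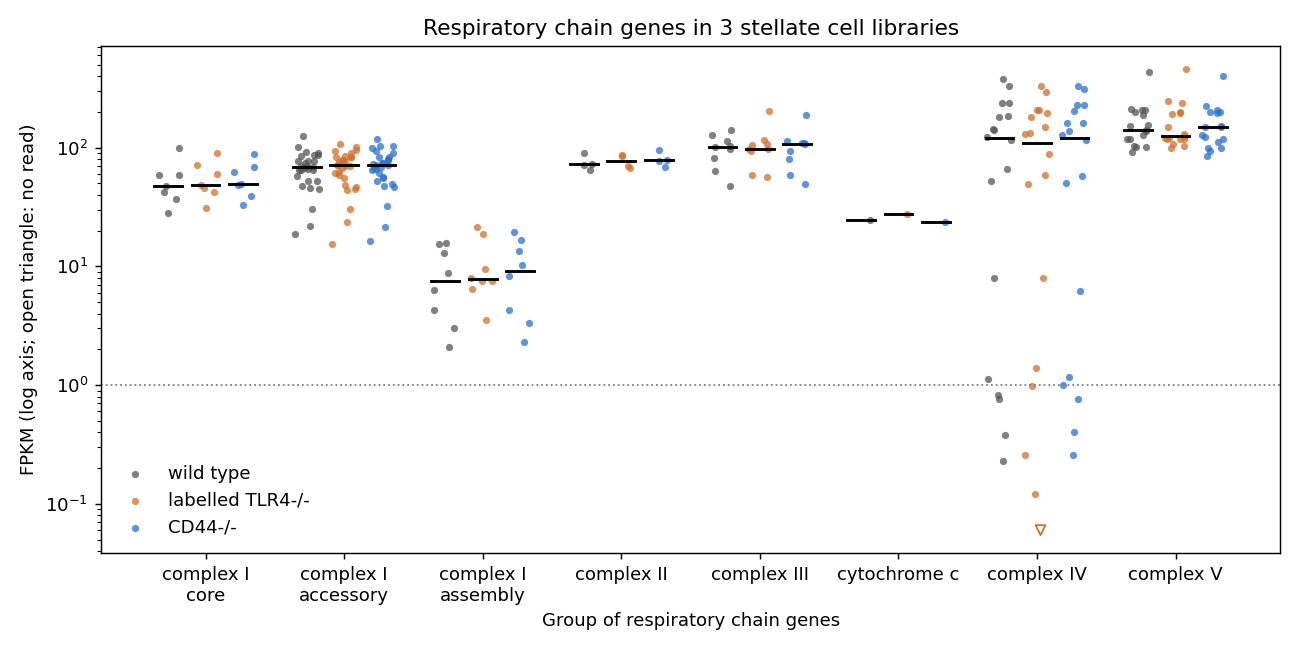
FPKM (log axis) of each listed gene by complex, with 1 point per gene and library, black bars for medians and open triangles for genes with no read. Most genes of each complex lie above 10 FPKM, while the assembly factors and a few complex IV genes lie lower, and the 3 libraries overlap in each group.

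Differences of at least 2-fold were counted on the log2(FPKM + 1) scale among genes with at least 1 FPKM in either library. Between the library labelled TLR4-/- and wild type, 2 of 91 genes were higher (Cox6a2 and Ndufaf6), against 1.04% of all 12098 genes compared, and 1 was lower (Cox6b2), against 2.69%. Between CD44-/- and wild type, 1 of 90 was higher (Cox6a2), against 2.24% of 12247 genes, and 1 was lower (Cox6b2), against 1.97%. Between the library labelled TLR4-/- and CD44-/-, 0 of 91 were higher, against 1.32% of 12168 genes, and 0 were lower, against 3.44%. Counts of 0 to 2 of about 90 genes are too small to set apart from these backgrounds.

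The spread of the log2 ratios was narrower than over all genes. The interquartile range was 0.31 for these genes against 0.41 for all genes in the library labelled TLR4-/- over wild type, 0.17 against 0.34 in CD44-/- over wild type, and 0.26 against 0.40 between the knockout-labelled libraries. Genes with a mean of at least 20 FPKM had ranges of 0.42, 0.31 and 0.40, and genes no longer than 707 bases had 0.66, 0.51 and 0.56. A log2 ratio within 0.25 of 0 was held by 72.5% of the group against 57.3% of all genes, by 93.3% against 65.0%, and by 80.2% against 58.8%, in the same order of comparisons. The median log2 ratio was 0.04, 0.04 and 0.00, against 0.03, 0.03 and 0.01 for all genes, and the first turned to -0.01 with median-of-ratios scaling.

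**Figure D2:**
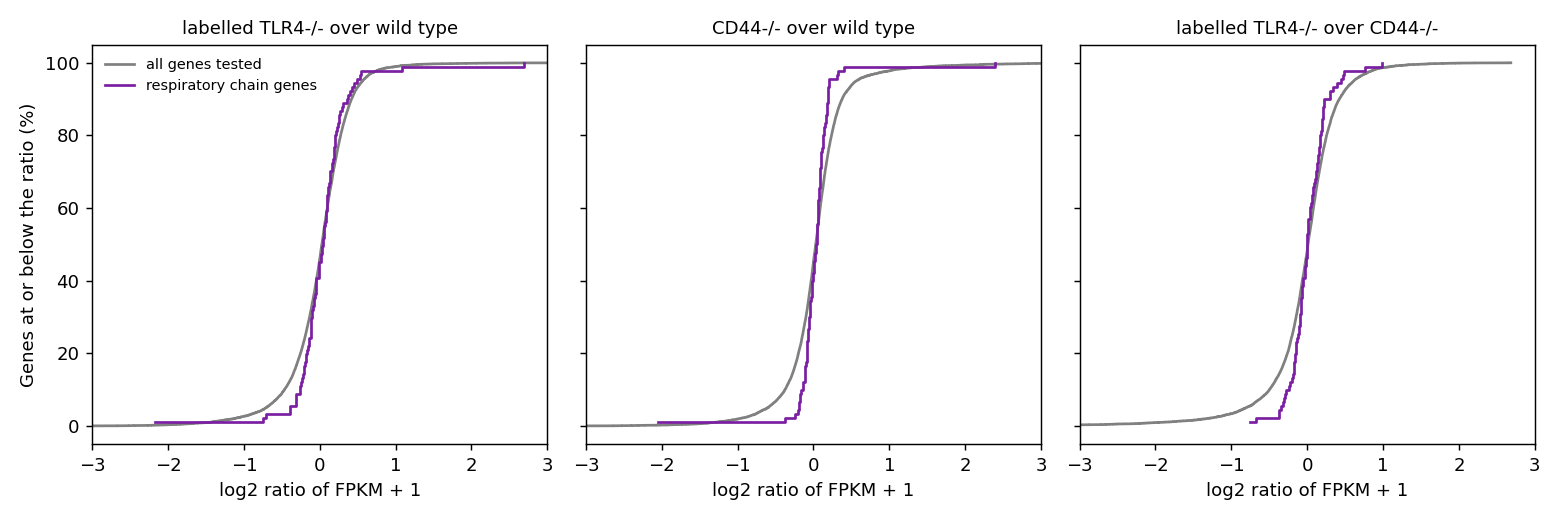
Cumulative share of genes (%) by log2 ratio of FPKM + 1, for the respiratory chain genes (purple) and all genes compared (gray), in the 3 comparisons between libraries. The purple curve is steeper around 0 in each panel, with interquartile ranges of 0.31, 0.17 and 0.26 against 0.41, 0.34 and 0.40.

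In the library labelled TLR4-/- over wild type, the counting interval of the FPKM ratio lay above 1 for 34 of 91 genes, against 34.4% of all genes compared, and below 1 for 27, against 29.1%. In CD44-/- over wild type it lay above 1 for 25 of 90, against 31.6%, and below 1 for 16, against 25.2%. As shares of the group these were 37.4% and 29.7%, and 27.8% and 17.8%. Among genes with a mean of at least 20 FPKM, whose counts are also high, the shares were 40.4% and 37.7%, and 35.0% and 34.7%. The ratios stayed between 0.8 and 1.25 for 75 and 84 genes of the group, or 82.4% and 93.3%, against 61.8% and 68.6% of all genes. For genes with a mean of at least 20 FPKM these shares were 67.5% and 78.2%. How far replicate cultures differ is not known from 1 library per genotype.

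Complex I takes electrons from NADH, and its 7 nuclear core subunits carry the flavin and the iron-sulphur clusters. Their sum was 372, 388 and 390 FPKM. Ndufs1, a large iron-sulphur subunit, was the lowest at 28.3, 31.0 and 32.6 FPKM. Ndufv1, the flavin-bearing subunit that oxidises NADH, stood at 47.1, 45.7 and 49.4 FPKM. Ndufs3 stood at 59.2, 71.0 and 62.8 FPKM, a ratio of 1.20 (1.11 to 1.29) in the library labelled TLR4-/- and 1.06 (0.98 to 1.15) in CD44-/-. The median log2 ratio of the core was 0.13 and 0.09 over wild type.

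The accessory subunits of complex I, which surround and stabilise the core, summed to 1954, 1972 and 2000 FPKM over 29 listed of 32 genes. Ndufa2 was the highest in wild type at 126, 106 and 118 FPKM, and Ndufa11, a membrane-arm subunit, the lowest at 18.8, 15.5 and 16.5 FPKM. Among them Ndufa12 had the highest ratio in the library labelled TLR4-/-, at 65.0, 83.4 and 71.7 FPKM (1.28, 1.17 to 1.41), and Ndufb2 the lowest, at 68.9, 55.5 and 68.8 FPKM (0.806, 0.720 to 0.902). Ndufb2 stood apart in that library, with wild type and CD44-/- close together. For Ndufa12, CD44-/- lay between the others, at 1.10 (1.001 to 1.22) over wild type. In CD44-/- the lowest ratio was that of Ndufa10, at 66.6, 69.4 and 56.0 FPKM (0.842, 0.786 to 0.901). Ndufab1, the mitochondrial acyl carrier protein, stood at 65.2, 71.4 and 65.7 FPKM. The median log2 ratio of these subunits was 0.04 and 0.05.

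The 8 Ndufaf genes encode assembly factors that help build complex I and are not part of the finished enzyme. They were far lower than the subunits, with sums of 68.6, 82.6 and 77.7 FPKM. Ndufaf6 (Entrez 76947, chr4:11048991-11076237, GRCm38), needed early in assembly, stood at 3.05, 7.55 and 3.33 FPKM, a ratio of 2.48 (1.89 to 3.26) in the library labelled TLR4-/- and 1.09 (0.785 to 1.52) in CD44-/-. Ndufaf3, which acts with Ndufaf4 on the module that binds ubiquinone, stood at 13.0, 7.56 and 13.4 FPKM and was 1.72-fold (1.44 to 2.07) lower in the library labelled TLR4-/- than in wild type. Its partner Ndufaf4 stood at 4.27, 6.39 and 4.31 FPKM, a ratio of 1.50 (1.31 to 1.71) in that library. Thus the partners Ndufaf3 and Ndufaf4 lay on opposite sides of wild type there, while both lay close to it in CD44-/-.

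Ndufaf5, which modifies an arginine of Ndufs7, stood at 2.09, 3.50 and 2.30 FPKM (1.67, 1.35 to 2.08, in the library labelled TLR4-/-), and its partner Ndufaf8 at 15.4, 21.4 and 19.3 FPKM (1.39, 1.14 to 1.70). Ndufaf1 stood at 6.36, 8.03 and 8.23 FPKM, Ndufaf2 at 15.7, 18.7 and 16.6 FPKM, and Ndufaf7, a methyltransferase, at 8.73, 9.46 and 10.2 FPKM. In the library labelled TLR4-/-, 7 of 8 assembly factors were above wild type, Ndufaf3 being the one below, with a median log2 ratio of 0.37 (0.33 with median-of-ratios scaling), and 53.9% of all genes compared were above wild type. In CD44-/- all 8 were above wild type, 7 with median-of-ratios or TMM scaling, with a median of 0.10, and 54.7% of all genes were. The counting interval there lay above 1 for Ndufaf1 (1.08 to 1.56), Ndufaf7 (1.03 to 1.32) and Ndufaf8 (1.01 to 1.55). It spanned 1 for the rest, and 31.6% of all genes compared had it above 1. Of these 8 genes, Ndufaf6 alone passed 2-fold.

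**Figure D3:**
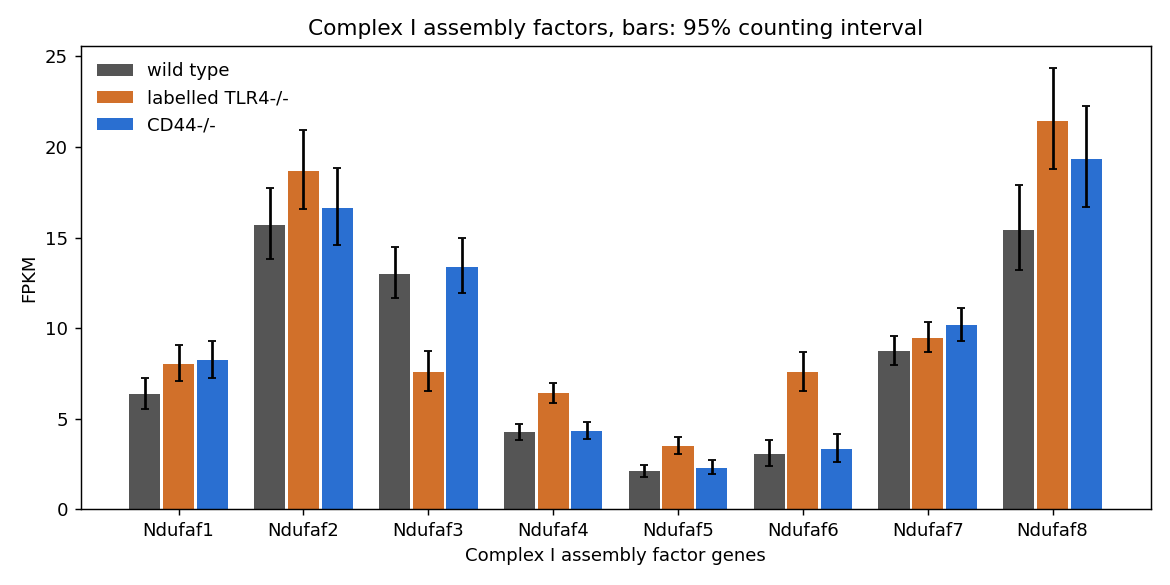
FPKM of the 8 complex I assembly factor genes in each library, with 95% counting intervals as error bars. The library labelled TLR4-/- is above the others for Ndufaf4, Ndufaf5 and Ndufaf6, and for Ndufaf3 it stands at 7.56 FPKM against 13.0 in wild type and 13.4 in CD44-/-.

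Complex II oxidises succinate and is also an enzyme of the tricarboxylic acid cycle. Its 4 genes summed to 299, 309 and 320 FPKM. Sdha, the flavoprotein, stood at 73.0, 67.2 and 79.4 FPKM, and Sdhb, the iron-sulphur subunit, at 71.8, 86.0 and 77.3 FPKM. The membrane anchors Sdhc and Sdhd stood at 89.7, 85.1 and 95.6 FPKM and at 64.9, 70.2 and 68.2 FPKM. In the library labelled TLR4-/- Sdha had a ratio of 0.922 (0.885 to 0.960) and Sdhb 1.20 (1.13 to 1.27), on opposite sides of wild type. In CD44-/- all 4 were above wild type, with ratios from 1.05 for Sdhd to 1.09 for Sdha, and 54.7% of all genes compared were above it.

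Complex III passes electrons from ubiquinol to cytochrome c. Its 9 genes summed to 878, 938 and 912 FPKM. Uqcrq, a small subunit near the ubiquinone sites, was the highest at 141, 205 and 187 FPKM, a ratio of 1.45 (1.36 to 1.55) in the library labelled TLR4-/- and 1.33 (1.24 to 1.42) in CD44-/-. Both knockout-labelled libraries were above wild type, and Gdf9, which overlaps Uqcrq by 58 bases, stood at 0.14, 0.33 and 0.10 FPKM. Uqcrh, the hinge protein next to cytochrome c1, stood at 128, 97.7 and 114 FPKM and was 1.31-fold (1.22 to 1.42) lower in the library labelled TLR4-/- and 1.12-fold (1.04 to 1.21) lower in CD44-/-. The Rieske iron-sulphur protein Uqcrfs1 stood at 63.7, 58.7 and 58.8 FPKM, cytochrome c1 (Cyc1) at 82.0, 93.7 and 80.7 FPKM, and the core protein Uqcrc2, the lowest, at 47.9, 56.5 and 49.4 FPKM. The subunits of this complex therefore did not share a direction. Cytochrome c (Cycs) stood at 24.6, 27.6 and 23.5 FPKM, ratios of 1.12 (1.05 to 1.19) and 0.954 (0.891 to 1.02), below the median of complex III in each library.

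Complex IV, cytochrome c oxidase, held the widest range of levels, from Cox6a1 at 380 FPKM to Cox7a1 at 0.23 FPKM in wild type. Its 19 genes, with Ndufa4, now known as a complex IV subunit despite its name, its paralogue Ndufa4l2 and the supercomplex factor Cox7a2l, summed to 2206, 2037 and 2127 FPKM. In the library labelled TLR4-/-, 11 of 16 genes compared were below wild type, with a median log2 ratio of -0.17 (-0.22 with median-of-ratios scaling), and in CD44-/- 11 of 15, with a median of -0.06. Over all genes compared, 5538 of 12098 and 5522 of 12247 were below wild type, and the medians were 0.03 in both. Cox5a, which sits on the matrix side, stood at 140, 181 and 137 FPKM, a ratio of 1.29 (1.22 to 1.37) in the library labelled TLR4-/-. Cox7a2l stood at 117, 88.7 and 115 FPKM and was 1.32-fold (1.25 to 1.39) lower there. For both genes the library labelled TLR4-/- stood apart while wild type and CD44-/- differed by less than 3 FPKM.

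**Figure D4:**
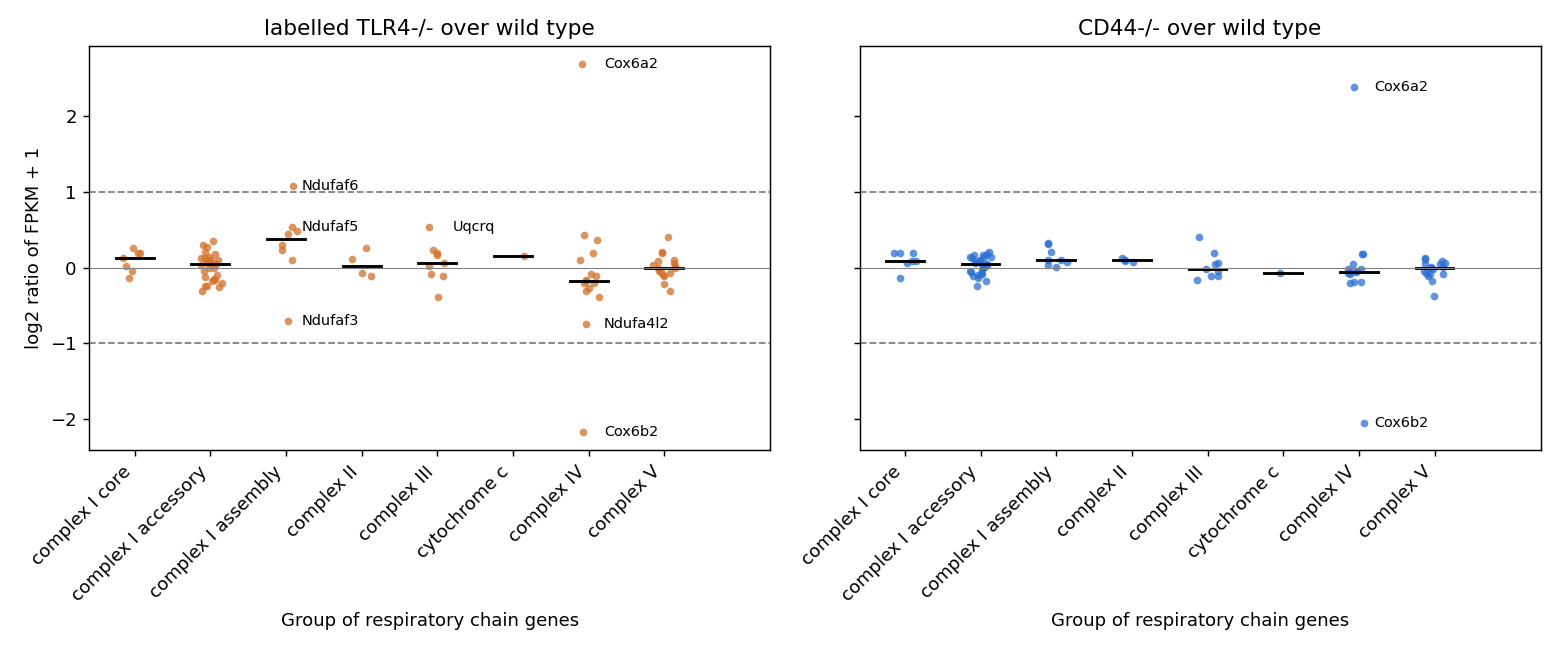
Log2 ratio of FPKM + 1 to wild type for each gene compared, by complex, in the library labelled TLR4-/- (left) and CD44-/- (right), with black bars for medians and dashed lines at 2-fold. Cox6a2 is far above and Cox6b2 far below the other genes in both panels, which share the wild-type library.

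Of the 7 pairs in which a common complex IV gene has a paralogue with restricted expression, the common form held most of the FPKM in every library. All 7 common forms were below wild type in both knockout-labelled libraries, with ratios of 0.808 to 0.942 in the library labelled TLR4-/- and 0.867 to 0.964 in CD44-/-, and this also held with median-of-ratios, TMM and TPM scaling. The counting interval lay below 1 for 6 and for 4 of the 7, against 29.1% and 25.2% of all genes compared. Among genes with a mean of at least 20 FPKM, the shares were 37.7% and 34.7%. Below wild type by any amount were 5538 of 12098 and 5522 of 12247 genes, and both comparisons share the wild-type library. All 7 are among the complex IV genes counted as below wild type above. Outside the pairs, Cox5b and Cox7c were above wild type in both knockout-labelled libraries and Cox7a2l was below in both. Cox5a and Cox6c changed side between them. Cox6a1 stood at 380, 329 and 332 FPKM, Cox4i1 at 331, 294 and 313 FPKM, and Cox6b1 at 187, 151 and 162 FPKM. Cox8a stood at 237, 197 and 227 FPKM, Ndufa4 at 238, 207 and 229 FPKM, Cox7a2 at 66.4, 58.6 and 58.1 FPKM, and Cox7b at 52.7, 49.6 and 50.8 FPKM.

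Cox6a2 (Entrez 12862, chr7:128205435-128206366, GRCm38) encodes the heart and skeletal muscle form of subunit 6a. It stood at 0.38, 7.91 and 6.22 FPKM, from 6, 122 and 87 reads, so both knockout-labelled libraries were above wild type, in CD44-/- by 16.4-fold (7.22 to 45.8). Its share of the summed FPKM of Cox6a1 and Cox6a2 was 0.0998%, 2.35% and 1.84%. Itgad, which overlaps it by 70 bases, stood at 0, 0.01 and 0 FPKM. The 26 striated muscle markers summed to 12.7, 11.9 and 9.25 FPKM, with 9, 10 and 14 of them at 0 and 3 at or above 1 FPKM in each library, the highest being Tnnt2 at 6.13 and 3.75 FPKM in the first 2 libraries and Pygm at 4.04 FPKM in CD44-/-. The sum of all 26 was thus below wild type in both knockout-labelled libraries. That direction depended on Tnnt2, which stood at 0.52 FPKM in CD44-/-, as the other 25 summed to 6.58, 8.15 and 8.73 FPKM. Among them Tnnc1 stood at 1.53, 2.87 and 1.72 FPKM (1.88, 1.13 to 3.19, in the library labelled TLR4-/-). Pygm stood at 2.81, 3.25 and 4.04 FPKM (1.44, 1.19 to 1.74, in CD44-/-) and Mylpf at 0.68, 0.64 and 1.40 FPKM (2.06, 0.976 to 4.56, in CD44-/-). Ckm stood at 0.03, 0.06 and 0 FPKM and Mb at 0, 0.04 and 0 FPKM. The 8 brown adipocyte markers summed to 3.21, 4.33 and 6.92 FPKM. Most of this was Cebpa at 2.59, 3.50 and 6.23 FPKM, the only marker of that list to reach 1 FPKM in any library. The part of muscle or brown adipocyte RNA in the level of Cox6a2 was not tested.

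Cox6b2 (Entrez 333182, chr7:4751792-4753094, GRCm38), the testis form of subunit 6b, ran the other way. It stood at 7.98, 0.99 and 1.16 FPKM, from 99, 12 and 13 reads, and was 8.06-fold (4.41 to 16.1) lower in the library labelled TLR4-/- and 6.88-fold (3.84 to 13.4) lower in CD44-/-. Its share of the pair with Cox6b1 was 4.10%, 0.653% and 0.712%. No other annotated gene overlaps it.

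The remaining paralogues stood at 1.38 FPKM or less in every library and rest on few reads. Cox4i2, the lung form, stood at 0.77, 1.38 and 0.40 FPKM, from 13, 23 and 6 reads, and overlaps Bcl2l1 by 6308 bases, which stood at 102, 61.4 and 42.6 FPKM. Ndufa4l2, known as a hypoxia-induced gene, stood at 1.12, 0.26 and 1.01 FPKM, from 26, 6 and 21 reads, and was 4.31-fold (1.73 to 12.8) lower in the library labelled TLR4-/-. Shmt2, which overlaps Ndufa4l2 by 32 bases, stood at 41.1, 109 and 45.4 FPKM. The muscle forms Cox7a1 and Cox8b had 2, 0 and 6 reads and 7, 1 and 2 reads. For the 0 reads of Cox7a1, up to 0.296% of the reads of its pair would be allowed, and Cox7b2, unlisted in all 3, is allowed up to 0.204%, 0.221% and 0.238% of the reads of its pair. At these read numbers the counting intervals of their ratios to wild type are wide. For Cox8b they ended at 1.14 (TLR4-/- label) and 1.67 (CD44-/-), below the lower limits of 9.29 and 7.22 for Cox6a2. For Cox7a1 they ended at 5.42 and 33.9, so only the second reached the interval of Cox6a2. Between the knockout-labelled libraries, the Cox7a1 interval ran from 0 to 0.770, on 0 reads against 6. Cox6a2, Cox6b1, Cox6b2, Cox7a1 and Cox8b are 5 of the 9 genes of the group on chromosome 7.

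**Figure D5:**
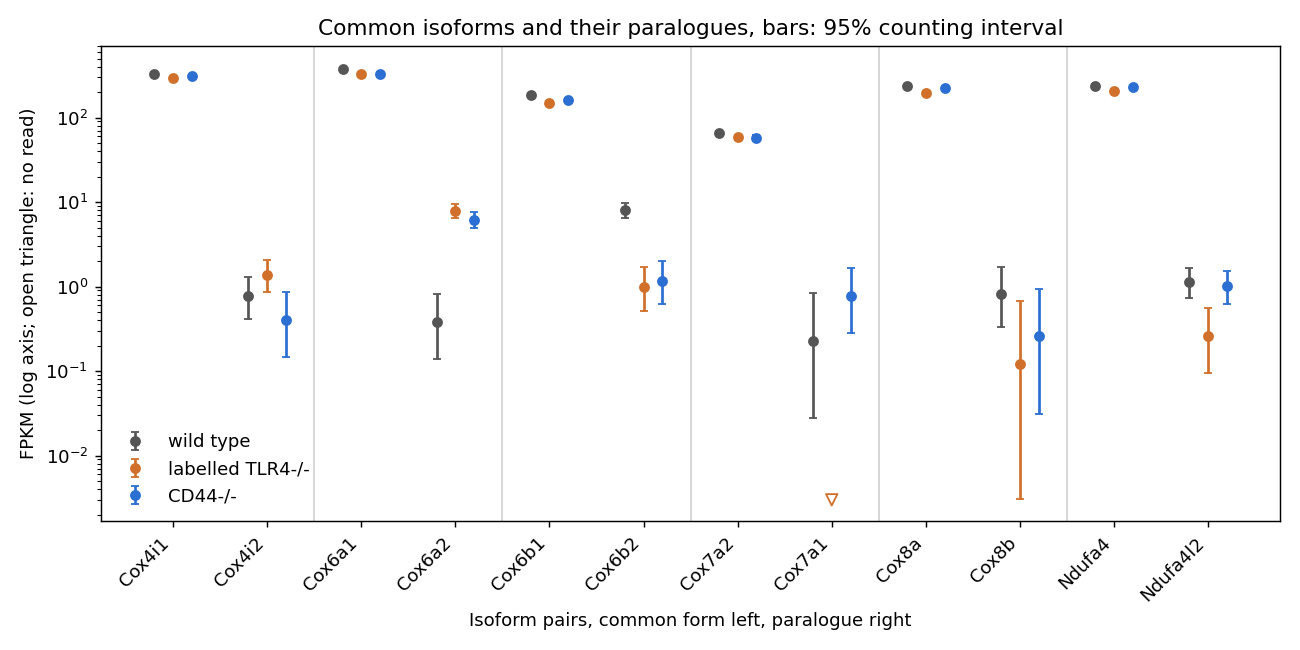
FPKM (log axis) of the common form and its paralogue in 6 pairs, with 95% counting intervals and an open triangle for no read. Common forms lie between 58.1 and 380 FPKM in these libraries, Cox6a2 stands at 0.38, 7.91 and 6.22 FPKM, and Cox6b2 at 7.98, 0.99 and 1.16 FPKM.

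Of 9250 genes with at least 5 FPKM in a library, ranked by the distance of their 2 log2 ratios to wild type from those of Cox6a2, the nearest were Niban1 at 0.67, 8.32 and 4.41 FPKM (distance 0.72) and Avil at 0.68, 7.90 and 4.32 FPKM (0.78). The next places were held by Mir5132, Mir5116 and Mir3091, each with under 10 reads per library. This likeness rests on 3 libraries.

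Complex V makes ATP. Its 17 genes were the most abundant group, with sums of 2793, 2838 and 2742 FPKM. Atp5b, the catalytic beta subunit, was the highest of all 97 genes at 434, 460 and 403 FPKM, and Atp5a1, its alpha partner, stood at 188, 196 and 195 FPKM. Atp5d, the delta subunit of the central stalk, stood at 155, 124 and 119 FPKM and was 1.25-fold (1.18 to 1.31) lower in the library labelled TLR4-/- and 1.30-fold (1.23 to 1.37) lower in CD44-/-. Cbarp, which overlaps Atp5d, stood at 6.13, 4.96 and 3.77 FPKM. The peripheral stalk subunit Atp5o stood at 151, 150 and 151 FPKM, and Atp5h at 139, 119 and 151 FPKM.

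Subunit c, which forms the rotating ring, is made from 3 genes that encode the same mature protein. Atp5g1 stood at 91.2, 120.8 and 85.8 FPKM, a ratio of 1.32 (1.24 to 1.41) in the library labelled TLR4-/-, Atp5g2 at 207, 236 and 201 FPKM (1.14, 1.09 to 1.20) and Atp5g3 at 213, 245 and 225 FPKM (1.15, 1.10 to 1.21). Together they gave 511, 602 and 512 FPKM, so the library labelled TLR4-/- had a higher sum than the other 2. The share of Atp5g1, the form known to vary most with demand, was 17.9%, 20.1% and 16.7%. The median log2 ratio of complex V was -0.01 and 0.00.

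Other genes of the pathway were taken from 7 lists that hold no gene of the symbol rule, chosen with earlier results known. Of all genes compared, 1.04% were past 2-fold higher and 2.69% lower in the library labelled TLR4-/-, and 2.24% and 1.97% in CD44-/-. Counts of 0 or 1 in lists this small cannot be set apart from these shares. Among 34 assembly factors of complexes II to V, 1 was past 2-fold in the library labelled TLR4-/- (Pet117, a complex IV assembly factor, at 0, 1.84 and 0.48 FPKM) and 0 of 32 in CD44-/-, with medians of 0.03 and -0.05. Of 10 complex I assembly factors without an Nduf name, 1 was past it in the library labelled TLR4-/-, Nubpl, which delivers iron-sulphur clusters, at 4.59, 10.6 and 7.15 FPKM (2.30, 1.87 to 2.84). Of 15 supercomplex and cristae proteins, 1 was past it in both, Chchd10, at 25.9, 86.7 and 86.2 FPKM. Chchd10 and Cox6a2 were thus both higher in the knockout-labelled libraries. None of 16 biogenesis regulators, 12 carriers and uncoupling proteins or 18 electron feeders and ubiquinone enzymes was past 2-fold on the log2(FPKM + 1) scale in either comparison. Ucp2, an uncoupling protein at 6.19, 2.70 and 5.33 FPKM, came near it: without the added 1 it was 2.29-fold (1.99 to 2.66) lower in the library labelled TLR4-/-, and its log2 ratio was -0.96. Among the regulators, Esrra, a nuclear receptor that drives respiratory genes, stood at 17.5, 10.8 and 11.0 FPKM, and Ppargc1a, a coactivator of mitochondrial biogenesis, at 0.11 FPKM in all 3 libraries. Of 22 genes of the tricarboxylic acid cycle and pyruvate dehydrogenase, 1 was past 2-fold lower in both, Pdk4, a kinase that restrains pyruvate dehydrogenase, at 15.5, 4.99 and 7.05 FPKM.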

How the data were processed

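Primary hepatic stellate cell RNA was sequenced in 3 libraries, 1 per genotype, grouped by the sample labels. The labels name a BGISEQ-500 preparation while the series text names Illumina instruments and triplicates. The authors deposited, per gene, an expected count (RSEM's estimate, often fractional), an FPKM value scaled by transcript length and library total, and that length. RSEM and mm10 stand in the submitters' processing notes, without a version. The tables list genes of at least 0.01 FPKM, and a missing gene was set to 0. Expected counts summed to 24078669, 23659074 and 21460725. Of 17870 genes, 17824 matched a RefSeq symbol and 46 did not.

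With 1 library per genotype no test was run. The size rule asked for a log2 ratio of FPKM + 1 that reached 1 or -1, in genes with 1 FPKM or more in either library. For low genes the added 1 shrinks the ratio. Ratios and folds of named genes are of FPKM without the added 1, with exact conditional binomial (Clopper-Pearson) 95% intervals on rounded expected counts. Levels have exact Poisson intervals, and the limit for 0 reads is 3 counts. All cover counting error only. Named genes were the isoform pairs, the highest, the lowest and the most different gene of each complex, genes past the size rule, core subunits and list genes past the rule. One gene that this rule selects is not reported here. The genes, lists and rules were chosen with earlier results of these data known. Steps were tested on simulated data. Alternatives were another pseudocount, other filters, median-of-ratios, TPM and TMM scaling (edgeR 4.0.16, R 4.3.3), a counting interval, protein-coding genes alone and isoform shares by reads. Python 3.11.15, pandas 2.3.3 and scipy 1.17.1 were used.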

Additional observations from a re-analysis of the deposited data

How the results depend on the processing

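No paired analysis was possible because each genotype has 1 library, and no replicate could be left out. Of 81 recomputed values of the main counts, medians and isoform shares, 70 stayed close and 11 moved. Against wild type in the library labelled TLR4-/-, the count of respiratory chain genes lower by 2-fold or more went from 1 to 2 with a pseudocount of 0.1 and to 3 with TPM, and the count higher went from 2 to 1 when the whole counting interval had to pass 2-fold. Between the knockout-labelled libraries the count higher went from 0 to 2 with a pseudocount of 0.1 and to 2 with TPM, and the count lower from 0 to 1 and to 2. Both settings give more weight to genes near 1 FPKM. By reads in place of FPKM, the share of Cox6a2 was 3.01% and 2.36% in the library labelled TLR4-/- and CD44-/-, and that of Ndufa4l2 was 0.969% and 0.913% in wild type and CD44-/-, since reads are not divided by length. The median log2 ratio of the group ranged from -0.01 to 0.04, from 0.01 to 0.05 and from -0.02 to 0.00 in the 3 comparisons. No gene or count called in a comparison turned its direction under these alternatives. Of 1671 recomputed values of single genes and complexes, 4 moved. Genes under about 1 FPKM rest on few reads, which limits the paralogues.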
